A study of Mus musculus with 8 samples.

Results

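Collagens, other proteins of the extracellular matrix, the enzymes that degrade them and genes of fibroblasts were read in spleens of mice with lymphoma and in control spleens. The 35 genes were taken from a list of names, and each was read from the transcript cluster (the set of probes for 1 gene on the array) that bears its symbol in the platform annotation, taking the cluster with the highest mean where a gene has several. A cluster was found for 33 of the 35 genes, among 19505 genes with a symbol on 22206 clusters; *Fbn1* and *Pdgfra* were not analysed here. None of the 33 lay on more than 1 cluster, and all 33 were tested, with no filter on low values.

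The 4 lymphoma samples came from lymphoma-bearing *Trp53*KI/KI;*Vav1*DC/DC mice and the 4 control samples from *Trp53*KI/KI mice, all on the C57BL/6 background. Both groups thus carry the same knock-in allele; no drug treatment, age or sex is given for the single samples. The methods name female animals for in vivo work. The study's text names both sexes for cohorts of *Vav1*DC/DC mice, in which it found no tumours. The groups differ in disease and in the edited *Vav1* allele, which truncates the protein within its C-terminal SH3 domain in every cell that expresses it, so the effects of the allele and of the lymphoma cannot be told apart. Total RNA of the spleen was hybridised to 1 array per sample (Affymetrix Clariom S HT), and the values are log2 expression values, where 1 unit is a doubling. The study's methods name RNA from the spleen, while a figure legend speaks of tumour cells and control cells taken from it. The samples are read here as whole spleen, which the sources do not settle. Whether the arrays of a group come from different animals is not stated, and a p-value here covers no more than the variation among these 8 samples.

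The extracellular matrix of the spleen is made by reticular fibroblasts, mural cells and endothelial cells. Its fibrillar collagens form reticular fibres, which in lymphoid tissue are wrapped in basement membrane proteins such as laminins, nidogen and type IV collagen, and small proteoglycans and matricellular glycoproteins bind these fibres and set how they assemble. Matrix metalloproteinases cut the fibres, tissue inhibitors (the TIMPs) block the proteases, and both can also be made by macrophages and other blood cells.

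The promoters of the 4 genes with the largest called rises and of the gene with the largest called fall, among those whose promoter at the first start site was at hand, are shown because they give the sequence next to the start of the genes that the results turn on. They are the 250 bases before the start site, in the direction of transcription, from RefSeq of the mouse build GRCm38.p6. Capitals mark a GC box (GGGCGG) or a CCAAT box (CCAAT) on either strand; a TATA box (TATAAA) and an AP-1 motif (TGANTCA) were also searched, on both strands, and were not found in these 5 windows.
Mmp14, chr14:54431348-54431597, plus strand: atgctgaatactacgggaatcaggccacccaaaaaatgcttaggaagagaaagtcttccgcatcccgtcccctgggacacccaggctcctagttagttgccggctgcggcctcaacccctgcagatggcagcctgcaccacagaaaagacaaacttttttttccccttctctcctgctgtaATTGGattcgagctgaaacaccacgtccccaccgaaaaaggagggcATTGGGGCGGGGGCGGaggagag
Sparc, chr11:55420081-55420330, minus strand: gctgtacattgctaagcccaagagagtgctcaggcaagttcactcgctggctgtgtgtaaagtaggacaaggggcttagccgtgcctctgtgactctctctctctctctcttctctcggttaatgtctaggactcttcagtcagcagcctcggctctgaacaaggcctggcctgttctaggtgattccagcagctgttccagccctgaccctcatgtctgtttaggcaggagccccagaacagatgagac
Bgn, chrX:73483351-73483600, plus strand: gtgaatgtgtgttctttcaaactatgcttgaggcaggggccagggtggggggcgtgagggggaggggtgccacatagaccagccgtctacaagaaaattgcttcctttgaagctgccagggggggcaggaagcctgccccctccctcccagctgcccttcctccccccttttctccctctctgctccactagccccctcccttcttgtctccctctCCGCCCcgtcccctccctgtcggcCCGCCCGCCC
Timp1, chrX:20869916-20870165, plus strand: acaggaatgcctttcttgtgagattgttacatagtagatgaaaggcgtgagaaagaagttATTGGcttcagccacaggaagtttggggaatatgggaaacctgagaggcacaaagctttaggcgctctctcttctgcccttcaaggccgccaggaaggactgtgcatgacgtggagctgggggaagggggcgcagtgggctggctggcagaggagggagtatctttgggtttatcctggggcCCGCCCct
Postn, chr3:54359017-54359266, plus strand: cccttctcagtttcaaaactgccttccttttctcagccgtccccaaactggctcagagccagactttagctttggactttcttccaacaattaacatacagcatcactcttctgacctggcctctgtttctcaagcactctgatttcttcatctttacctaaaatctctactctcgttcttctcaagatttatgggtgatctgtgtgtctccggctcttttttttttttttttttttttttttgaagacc

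The *Mmp14* window held CCAAT boxes on the opposite strand that begin at positions -69 and -23 from the start and adjoining GC boxes that begin at -19 and -13, the first of which shares a base with the CCAAT box. *Bgn* had GC boxes on the opposite strand at -34, -10 and -6, the last pair overlapping, and *Timp1* a CCAAT box at -190 and a GC box at -8, both on the opposite strand. No searched motif was found in the printed windows of *Sparc* and *Postn*. A window at another start site of *Postn*, not shown, held a TATA box and is counted below. Their G and C content was 55.2% for *Mmp14*, 54.0% for *Sparc*, 64.4% for *Bgn*, 54.4% for *Timp1* and 40.4% for *Postn*. Promoters matched 20 of the 33 genes by symbol. A GC box lay in at least 1 window of 14 of the 20 genes, against 35.4% of the 27025 genes in the table, a CCAAT box in 10 of 20 against 37.5%, a TATA box in 3 of 20 against 14.3% and an AP-1 motif in 1 of 20 against 7.82%. By window, without regard to gene, the shares over all 32851 windows were 32.7%, 33.8%, 12.4% and 6.75% in the same order. Among the 9 genes with a promoter that were higher in lymphoma spleens, 8 had a GC box, 6 a CCAAT box, 1 a TATA box and 0 an AP-1 motif. These are matches of letters in a window and say nothing about binding.

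Against control spleens, 14 of the 33 genes were higher in lymphoma spleens and 2 were lower with limma at a Benjamini-Hochberg adjusted p of at most 0.05 over all clusters, and 17 did not pass. Over all clusters 18.2% were higher and 17.2% were lower by the same test. Every later count of higher or lower genes on the values as deposited, without a fold threshold, stands beside these shares. A rise of at least 2-fold was found for 5 of the 33 genes, *Mmp14*, *Sparc*, *Mmp19*, *Dcn* and *Bgn*, against 3.03% of all clusters, and a fall of at least 2-fold for 0 of 33, against 0.68%. The median log2 fold change of the 33 genes was 0.11, against -0.06 over all clusters. Every lymphoma array read above every control array for 15 genes (18.0% of all clusters) and below for 2 genes (16.7%). Within a group, the SD of these genes lay between 0.06 and 0.30 on the lymphoma arrays and between 0.04 and 0.30 on the control arrays. A lower or higher value in whole spleen can stem from the number of cells that make a transcript or from the amount per cell, and these cannot be told apart here.

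**Figure D1:**
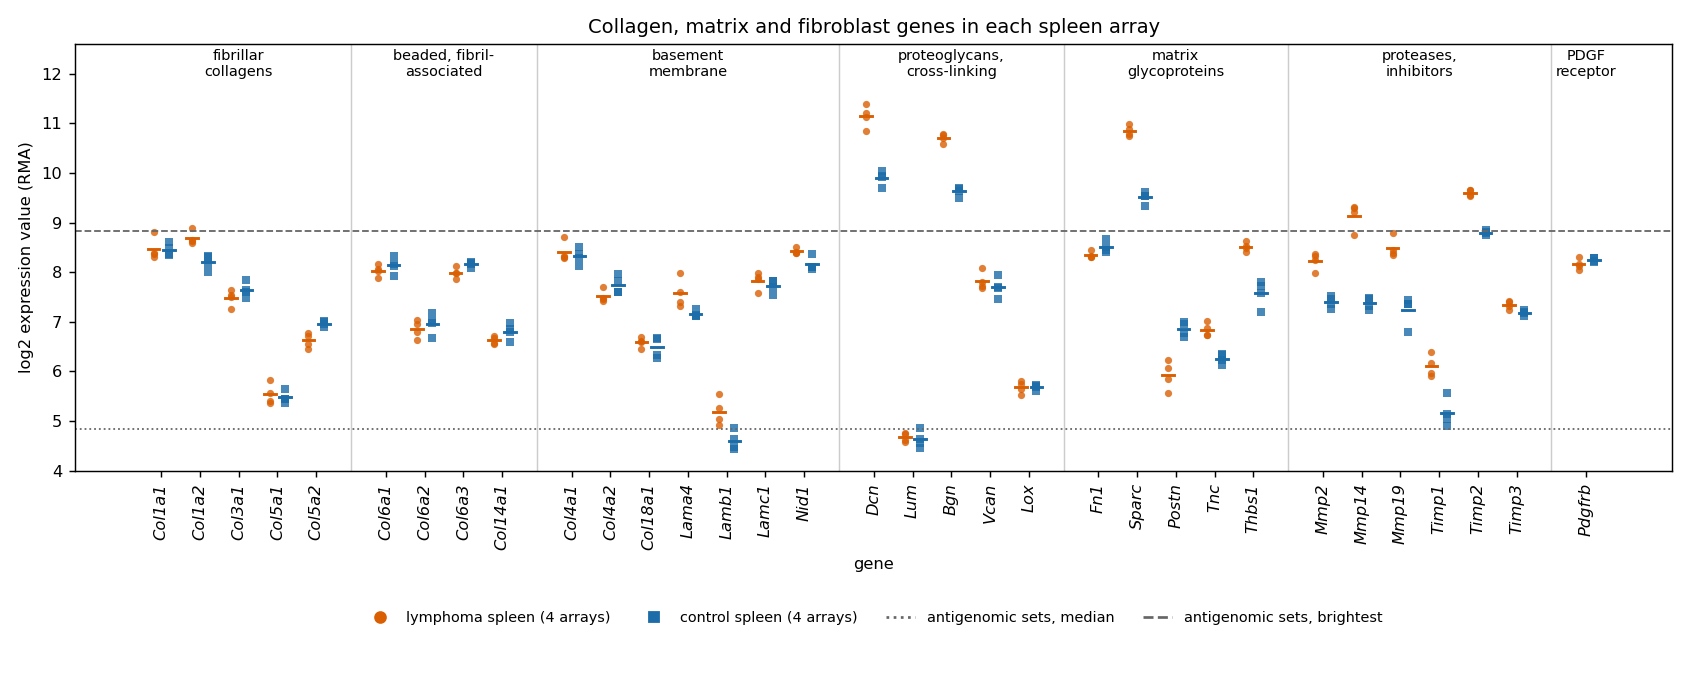
Log2 expression value (vertical axis) of each of the 33 genes, grouped by role, on the 4 lymphoma arrays (orange circles) and the 4 control arrays (blue squares), with bars at the group means and lines at the median and the brightest of the antigenomic background sets. *Dcn*, *Bgn* and *Sparc* lie above the upper line on all 8 arrays, and *Lum* lies at the lower line.

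Collagen chains, the structural core of the fibres, showed few calls on the deposited scale: of 12 chains, 1 was higher, 1 was lower and 10 did not pass, with a median log2 fold change of -0.10. With the arrays set to equal levels of control probe sets, described further on, 5 (neg sets) or 6 (hybridisation sets) of the 12 were higher and 0 were lower. Over all clusters, 60.7% (neg sets) or 61.7% (hybridisation sets) were higher on that scale and 2.88% or 2.43% lower. Every later count on the scale of the control probe sets stands beside these shares. The chains added were *Col1a1*, *Col4a1*, *Col5a1* and *Col18a1* on both scales and *Col6a1* on that of the hybridisation sets. *Col1a2*, a chain of type I collagen, the main fibrillar collagen, was the one that was higher on the deposited scale. It read 8.58, 8.64, 8.64 and 8.89 on the lymphoma arrays, against 8.33, 7.99, 8.16 and 8.30 on the control arrays, a log2 fold change of 0.49 (SE 0.10, limma adjusted p = 0.00152). The groups did not overlap. Its partner chain *Col1a1* read 8.38, 8.37, 8.30 and 8.80 on the lymphoma arrays, against 8.34, 8.48, 8.38 and 8.62 on the control arrays. These ranges overlapped, and the log2 fold change of 0.01 had a 95% interval of -0.23 to 0.25 (limma adjusted p = 0.961).

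*Col5a2*, a chain of type V collagen, which starts and limits the growth of type I fibrils, was the chain that was lower. It read 6.45, 6.54, 6.72 and 6.78 on the lymphoma arrays, against 7.02, 6.99, 6.89 and 6.94 on the control arrays, a log2 fold change of -0.34 (SE 0.09, limma adjusted p = 0.00894). With the control probe sets as scale its change was 0.05 in place of -0.34, so its direction rests on the normalisation. *Col5a1*, the other type V chain, averaged 5.54 ± 0.21 in lymphoma spleens and 5.47 ± 0.13 in control spleens (SD, n = 4 each). *Col3a1*, which forms the thin fibrils of reticular fibres, averaged 7.49 ± 0.16 in lymphoma spleens and 7.64 ± 0.15 in control spleens, and the interval of its log2 fold change was -0.38 to 0.07. Neither passed the test.

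The beaded and fibril-associated chains all had negative log2 fold changes that did not pass. *Col6a1*, *Col6a2* and *Col6a3*, which together build the beaded filaments of type VI collagen, had log2 fold changes of -0.11, -0.10 and -0.17, and *Col14a1*, a collagen that sits on the surface of fibrils, had -0.17. The smallest limma adjusted p of the 4 was 0.109, that of *Col6a3*, which averaged 7.98 ± 0.10 in lymphoma spleens and 8.15 ± 0.05 in control spleens (SD, n = 4 each). With the control probe sets as scale, the 4 changes were positive.

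Among the basement membrane genes, 3 of 7 were higher and none was lower, against 18.2% and 17.2% of all clusters. *Lama4*, the alpha chain of the laminin of vessel walls and reticular fibres, read 7.31, 7.99, 7.40 and 7.60 on the lymphoma arrays, against 7.11, 7.13, 7.11 and 7.27 on the control arrays (log2 fold change 0.42, SE 0.13, limma adjusted p = 0.0195). All lymphoma arrays were above all control arrays, with lymphoma replicate 2 the highest. *Lamb1*, a beta chain that can pair with it, read 5.55, 5.04, 4.91 and 5.26 on the lymphoma arrays, against 4.85, 4.47, 4.63 and 4.43 on the control arrays (log2 fold change 0.59, SE 0.13, limma adjusted p = 0.00370). Its values were low: on 3 of the 4 control arrays they did not exceed the median of the antigenomic probe sets, which match no mouse sequence and read background, and with values raised to that median the log2 fold change was 0.32 and did not pass (limma adjusted p = 0.0503).

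*Nid1*, nidogen, which links the laminin and the type IV collagen networks, read 8.38, 8.40, 8.39 and 8.51 on the lymphoma arrays, against 8.06, 8.36, 8.11 and 8.11 on the control arrays (log2 fold change 0.26, SE 0.08, limma adjusted p = 0.0290). The groups were separated by little, since control replicate 2 came close to the lymphoma arrays. The call was lost without lymphoma replicate 2 or 4 or without control replicate 1, 3 or 4, with a limma adjusted p of up to 0.0767. *Lamc1*, the gamma chain shared by these laminins, averaged 7.83 ± 0.18 in lymphoma spleens and 7.72 ± 0.13 in control spleens (SD, n = 4 each) and did not pass.

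The chains of type IV collagen, the sheet-forming collagen of basement membranes, did not pass either. *Col4a1* read 8.29, 8.32, 8.30 and 8.70 on the lymphoma arrays, against 8.29, 8.51, 8.13 and 8.38 on the control arrays. *Col4a2*, its neighbour on the genome and its partner in the trimer, read 7.46, 7.48, 7.41 and 7.69 on the lymphoma arrays, against 7.60, 7.83, 7.61 and 7.97 on the control arrays (log2 fold change -0.24, limma adjusted p = 0.0823). Without lymphoma replicate 4 its limma adjusted p was 0.0404, and with the replicate number as a block it was 0.0362. *Col18a1*, a basement membrane collagen whose end fragment is endostatin, had a log2 fold change of 0.10 with overlapping groups.

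Among the small leucine-rich proteoglycans that coat collagen fibrils, *Dcn* and *Bgn* were higher. *Dcn*, decorin, which binds fibrils and limits their width, read 11.13, 11.39, 10.85 and 11.21 on the lymphoma arrays, against 10.03, 9.69, 9.94 and 9.92 on the control arrays, 2.38-fold higher (log2 fold change 1.25, SE 0.11, limma adjusted p = 2.21e-06). *Bgn*, biglycan, a close relative that can also act as a danger signal when it is set free, read 10.76, 10.78, 10.59 and 10.71 on the lymphoma arrays, against 9.69, 9.64, 9.67 and 9.50 on the control arrays, 2.12-fold higher (log2 fold change 1.08, SE 0.08, limma adjusted p = 3.56e-07). In both, the lowest lymphoma array was well above the highest control array. *Lum*, lumican, which lies next to *Dcn* on the genome, averaged 4.67 ± 0.09 in lymphoma spleens and 4.63 ± 0.17 in control spleens (SD, n = 4 each), at or below the background median on 4 lymphoma arrays and 3 control arrays, so a change of *Lum* was not detectable at this signal.

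*Vcan*, versican, a large proteoglycan of loose matrix, averaged 7.82 ± 0.18 in lymphoma spleens and 7.69 ± 0.20 in control spleens (SD, n = 4 each) and did not pass. *Lox*, the lysyl oxidase that starts the cross-linking of collagen and elastin, averaged 5.68 ± 0.13 in lymphoma spleens and 5.68 ± 0.06 in control spleens, with an interval of the log2 fold change that lay around 0 (limma adjusted p = 0.992). Their groups overlapped.

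Of the glycoproteins that bind the fibres, 3 of 5 were higher and 1 was lower, against 18.2% and 17.2% of all clusters. *Sparc*, a collagen-binding glycoprotein also known as osteonectin, read 10.79, 10.99, 10.74 and 10.88 on the lymphoma arrays, against 9.53, 9.34, 9.61 and 9.54 on the control arrays, 2.54-fold higher (log2 fold change 1.35, SE 0.09, limma adjusted p = 1.23e-07). *Thbs1*, thrombospondin 1, which platelets and macrophages release and which can activate latent TGF-beta, read 8.40, 8.53, 8.63 and 8.49 on the lymphoma arrays, against 7.80, 7.19, 7.72 and 7.58 on the control arrays, 1.92-fold higher (log2 fold change 0.94, SE 0.12, limma adjusted p = 3.83e-05). Neither gene had overlapping groups.

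*Tnc*, tenascin-C, a glycoprotein of remodelled tissue and of the reticular network, read 6.72, 7.02, 6.74 and 6.87 on the lymphoma arrays, against 6.33, 6.34, 6.22 and 6.13 on the control arrays (log2 fold change 0.58, SE 0.09, limma adjusted p = 0.000203). *Postn*, periostin, which binds type I collagen and tenascin-C and helps fibrils to assemble, read 6.07, 6.24, 5.84 and 5.57 on the lymphoma arrays, against 6.69, 6.94, 6.78 and 7.00 on the control arrays (log2 fold change -0.92, SE 0.13, limma adjusted p = 9.64e-05). All lymphoma arrays were below all control arrays, and the fall kept its direction and its call under every alternative that tested it; with the control probe sets as scale it was -0.54 or -0.53. *Fn1*, fibronectin, averaged 8.35 ± 0.06 in lymphoma spleens and 8.51 ± 0.11 in control spleens (SD, n = 4 each) and did not pass (log2 fold change -0.16, limma adjusted p = 0.140).

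Of the proteases and their inhibitors, 5 of 6 were higher, against 18.2% of all clusters. *Mmp14*, a protease anchored in the cell membrane that cuts fibrillar collagen and activates the MMP2 precursor, showed the largest change of the 33 genes. It read 9.30, 9.31, 8.74 and 9.21 on the lymphoma arrays, against 7.31, 7.47, 7.46 and 7.24 on the control arrays, 3.41-fold higher (log2 fold change 1.77, SE 0.12, limma adjusted p = 1.79e-07). Lymphoma replicate 3 was the lowest of its group and still more than 1 unit above the control arrays. *Mmp19*, a secreted metalloproteinase that cuts basement membrane proteins, read 8.35, 8.44, 8.39 and 8.79 on the lymphoma arrays, against 7.35, 6.78, 7.43 and 7.35 on the control arrays, 2.40-fold higher (log2 fold change 1.26, SE 0.14, limma adjusted p = 1.34e-05).

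*Mmp2*, a gelatinase that cuts denatured and type IV collagen, read 8.33, 8.24, 7.98 and 8.37 on the lymphoma arrays, against 7.25, 7.52, 7.37 and 7.45 on the control arrays, 1.78-fold higher (log2 fold change 0.83, SE 0.10, limma adjusted p = 2.22e-05). The inhibitors *Timp1* and *Timp2* were higher as well. *Timp2*, which inhibits MMP2 and also takes part in its activation by MMP14, read 9.66, 9.65, 9.55 and 9.53 on the lymphoma arrays, against 8.80, 8.85, 8.75 and 8.78 on the control arrays, 1.74-fold higher (log2 fold change 0.80, SE 0.07, limma adjusted p = 2.32e-06). *Timp1*, a secreted inhibitor induced by inflammatory signals in many cells, read 5.98, 6.17, 5.90 and 6.38 on the lymphoma arrays, against 5.14, 5.56, 5.04 and 4.91 on the control arrays, 1.92-fold higher (log2 fold change 0.94, SE 0.14, limma adjusted p = 0.000146). The groups did not overlap in any of these genes; 1 control array of *Timp1* was at or below the background median.

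*Timp3*, the inhibitor that stays bound to the matrix, read 7.24, 7.32, 7.41 and 7.40 on the lymphoma arrays, against 7.24, 7.20, 7.17 and 7.11 on the control arrays. Its groups did not overlap, by a margin below 0.01, and the log2 fold change of 0.16 did not pass (limma adjusted p = 0.111). *Pdgfrb*, the PDGF receptor of mural cells and fibroblasts, averaged 8.16 ± 0.10 in lymphoma spleens and 8.25 ± 0.05 in control spleens (SD, n = 4 each), with a log2 fold change of -0.08 that did not pass.

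**Figure D2:**
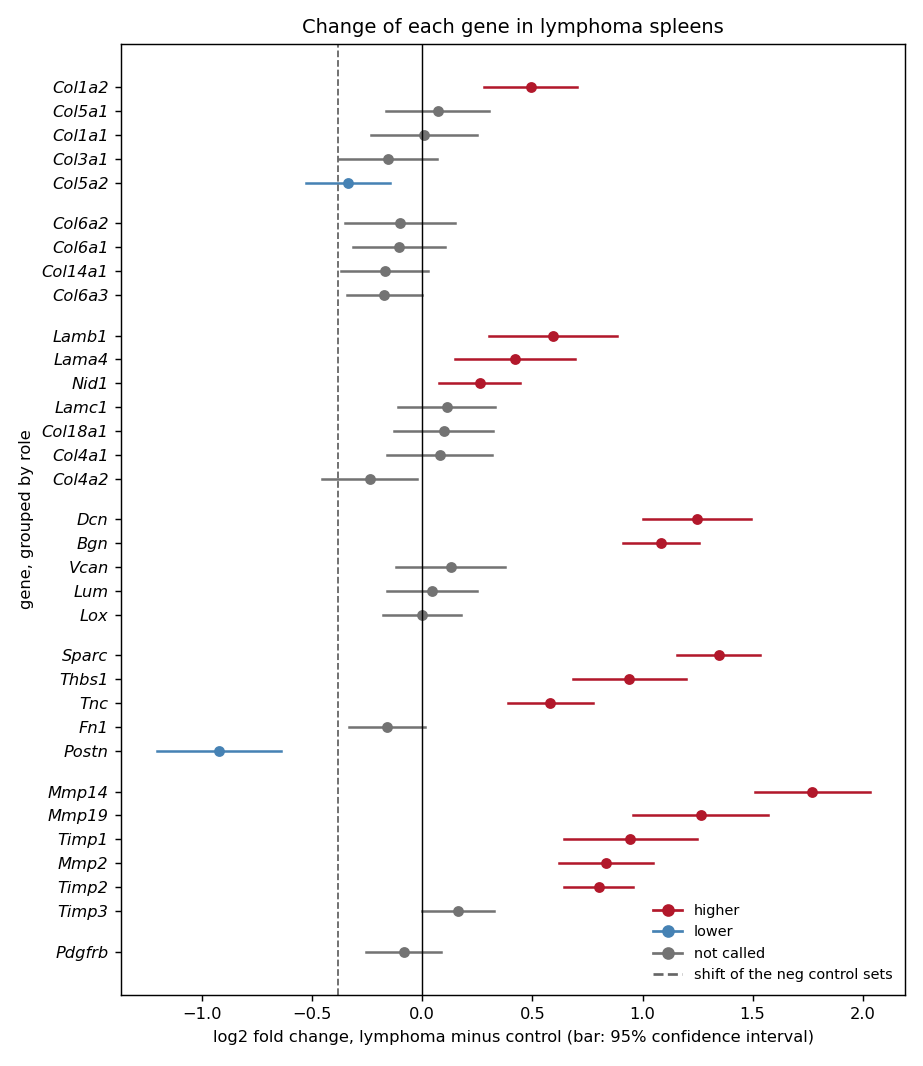
Log2 fold change of lymphoma over control spleens (horizontal axis) for each of the 33 genes, grouped by role, with 95% confidence intervals as bars and the shift of the neg control sets as a dashed line. *Mmp14* reaches 1.77 and *Postn* -0.92, and of the 12 collagen chains only *Col1a2* and *Col5a2* are coloured as called on the deposited scale, against 5 or 6 chains, all higher, with the control probe sets as scale. On that scale 60.7% or 61.7% of all clusters were higher.

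Whether partner genes changed by unequal amounts was tested for 15 pairs, as the difference of their log2 values within each array, with an exact two-sided permutation test over all 70 labellings of the arrays; the smallest p it can give is 0.0286. The pairs were chosen with earlier results of these data known. In 6 pairs every lymphoma array lay on one side of every control array, with p = 0.0286 by the exact test. After adjustment over the 15 pairs their p was 0.0715, so 0 of 15 passed. That value follows from the smallest possible p, the number of pairs tested and the number of pairs that reached the smallest p.

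The difference of *Mmp2* minus *Mmp14* averaged -0.91 ± 0.14 in lymphoma spleens and 0.03 ± 0.14 in control spleens (SD, n = 4 each). The difference of their changes was -0.94 on the log2 scale, with no overlap between the groups. It did not pass after adjustment (exact permutation test, adjusted p = 0.0715). *Dcn* minus *Lum* averaged 6.48 ± 0.29 in lymphoma spleens and 5.27 ± 0.15 in control spleens, but *Lum* was at background. *Timp1* minus *Timp3* averaged -1.24 ± 0.21 in lymphoma spleens and -2.02 ± 0.26 in control spleens, and *Timp2* minus *Timp3* averaged 2.25 ± 0.14 in lymphoma spleens and 1.62 ± 0.05 in control spleens, differences of 0.78 and 0.64 with no overlap between the groups.

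Partner chains of 1 trimer were also among these 6 pairs. *Col1a1* minus *Col1a2* averaged -0.22 ± 0.10 in lymphoma spleens and 0.26 ± 0.20 in control spleens (SD, n = 4 each), a difference of -0.48, and *Col4a1* minus *Col4a2* averaged 0.89 ± 0.08 in lymphoma spleens and 0.58 ± 0.13 in control spleens, a difference of 0.32. Neither difference passed after adjustment (exact permutation test, adjusted p = 0.0715 for each). *Col6a1* minus *Col6a2* averaged 1.17 ± 0.24 in lymphoma spleens and 1.18 ± 0.30 in control spleens (unadjusted p = 0.943, exact permutation test). *Dcn* minus *Bgn* averaged 0.44 ± 0.15 in lymphoma spleens and 0.27 ± 0.15 in control spleens (unadjusted p = 0.2, exact permutation test). The other 7 pairs, among them *Mmp14* and *Mmp19*, had overlapping groups with exact permutation p between 0.0571 and 0.6.

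**Figure D3:**
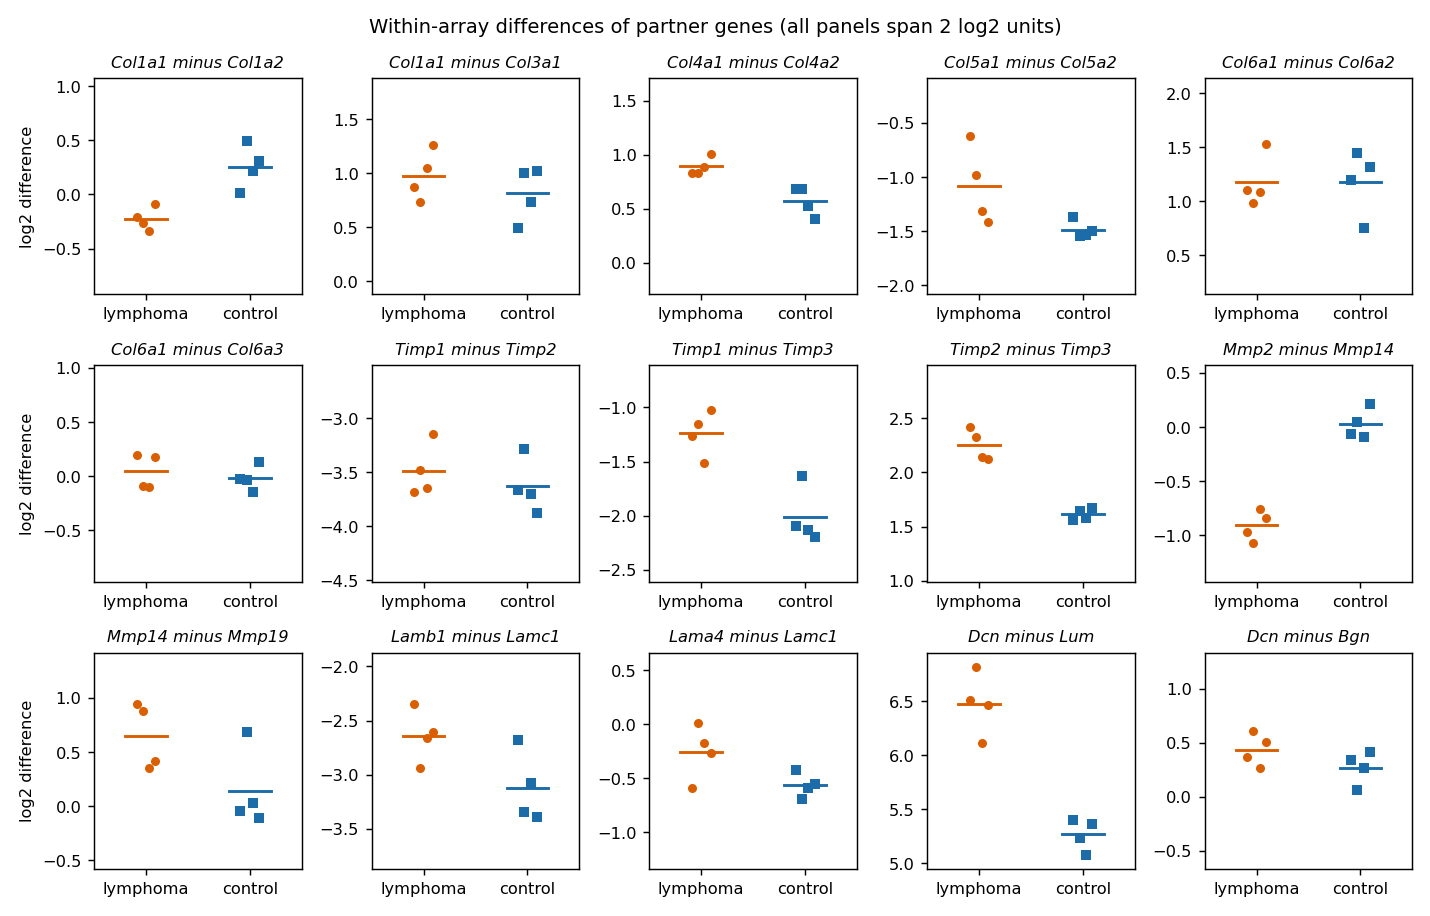
Difference of the log2 values of 2 partner genes within each array (vertical axis, every panel spanning 2 log2 units) for 15 pairs, on the 4 lymphoma arrays (orange) and the 4 control arrays (blue), with bars at the means. In 6 panels, such as *Mmp2* minus *Mmp14* at -0.91 and 0.03, the groups do not overlap.

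The genes outside the 33 that make, process and read the matrix were described from lists of names, which were also chosen with earlier results known. Of 30 other collagen chains, 0 were higher and 12 were lower, and the median change was -0.20 on the log2 scale. *Col6a4*, a chain of type VI collagen, fell by 1.37, *Col4a6*, a minor chain of basement membranes, by 0.54 and *Col6a5* by 0.42. With the control probe sets as scale, 5 or 6 of the 30 were higher and 1 was lower, against 60.7% or 61.7% of all clusters higher. *Col6a4* was then at -0.98, *Col4a6* at -0.16 or -0.15 and *Col6a5* at -0.03, so these falls kept their direction but became smaller. Most of the smaller falls turned positive, so their direction rests on the normalisation. On either scale the share of the 30 chains that was higher lay below that of all clusters. Of 12 other basement membrane genes, 0 were higher and 3 were lower, *Lama2*, *Lamc3* and *Smoc1*, with log2 fold changes of -0.40, -0.37 and -0.35; with the control probe sets as scale, 6 were higher and 0 lower.

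Of the genes that fold, process and cross-link collagen, 12 of 26 were higher, 1 was lower and 13 did not pass, with a median change of 0.23 on the log2 scale. On the scale of the control probe sets, 20 were higher and 0 lower. *Tgm2*, a transglutaminase that cross-links matrix proteins, averaged 9.54 ± 0.24 in lymphoma spleens and 8.34 ± 0.13 in control spleens (SD, n = 4 each). *Serpinh1*, a chaperone that binds procollagen in the endoplasmic reticulum, averaged 8.61 ± 0.15 in lymphoma spleens and 7.60 ± 0.13 in control spleens (limma adjusted p = 3.54e-06). *Creb3l1*, a transcription factor that drives collagen secretion, had a log2 fold change of 0.84, and *Loxl4*, a lysyl oxidase relative, had -0.38 (0.01 with the control probe sets as scale). On the deposited scale, of the 12 collagen chains among the 33 genes and the 30 others, only *Col1a2* passed as higher.

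Of 37 other glycoproteins and proteoglycans, 8 were higher and 11 were lower, against 18.2% and 17.2% of all clusters. *Fgl2*, a fibrinogen-like protein of T cells and macrophages, had a log2 fold change of 2.09, *Tgfbi*, a collagen-binding protein induced by TGF-beta, 1.32 and *Srgn*, the proteoglycan of blood cell granules, 0.65. *Ogn* and *Fmod*, small leucine-rich proteoglycans of the family of *Dcn* and *Lum*, fell by 1.42 and 0.72, and *Efemp1*, an elastic fibre protein, by 0.67. With the control probe sets as scale, 20 or 21 were higher and 1 was lower.

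Of 34 other metalloproteinases, related proteases and inhibitors, 13 were higher and 4 were lower, or 25 and 1 with the control probe sets as scale. The largest rises were those of *Plau*, urokinase, at 2.25, *Mmp8*, the neutrophil collagenase, at 2.01 or more, and *Mmp3*, stromelysin 1, at 1.22. For *Mmp8*, 2 of the 4 control arrays did not exceed the background median and were raised to it. The largest falls were those of *Mmp12*, the macrophage elastase, at -1.53, *Adamts10* at -0.59 and *Plaur*, the urokinase receptor, at -0.56 on the log2 scale. Of 27 receptors for collagen and matrix, 11 were higher, led by *Sdc3*, a syndecan (2.06), *Itga9*, an integrin chain that binds tenascin-C (1.35), and *Lair1*, an inhibitory collagen receptor of leukocytes (1.21), and 3 were lower, *Cd36* (-0.96), a receptor for thrombospondin 1, *Itgb6* (-0.56) and *Itga8* (-0.37). On the scale of the control probe sets at least 21 receptors were higher and 1 was lower. *Itga8* was then at 0.01 or 0.02. Of 21 genes of TGF-beta and PDGF signalling, 4 were higher and 5 were lower, against 18.2% and 17.2% of all clusters. Among the higher were the ligands *Pdgfc* (log2 fold change 1.59) and *Pdgfb* (0.87) and the co-receptor *Eng* (0.96). Among the lower were *Smad7* (-0.45) and *Smad6* (-0.32), inhibitory SMADs, and *Tgfbr1* (-0.43), the type I receptor. These falls rest on the deposited scale. After scaling by the control probe sets, 11 or 12 of the 21 were higher and 0 lower. *Smad7* was then at -0.06, *Smad6* at 0.06 or 0.07 and *Tgfbr1* at -0.04.

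**Figure D4:**
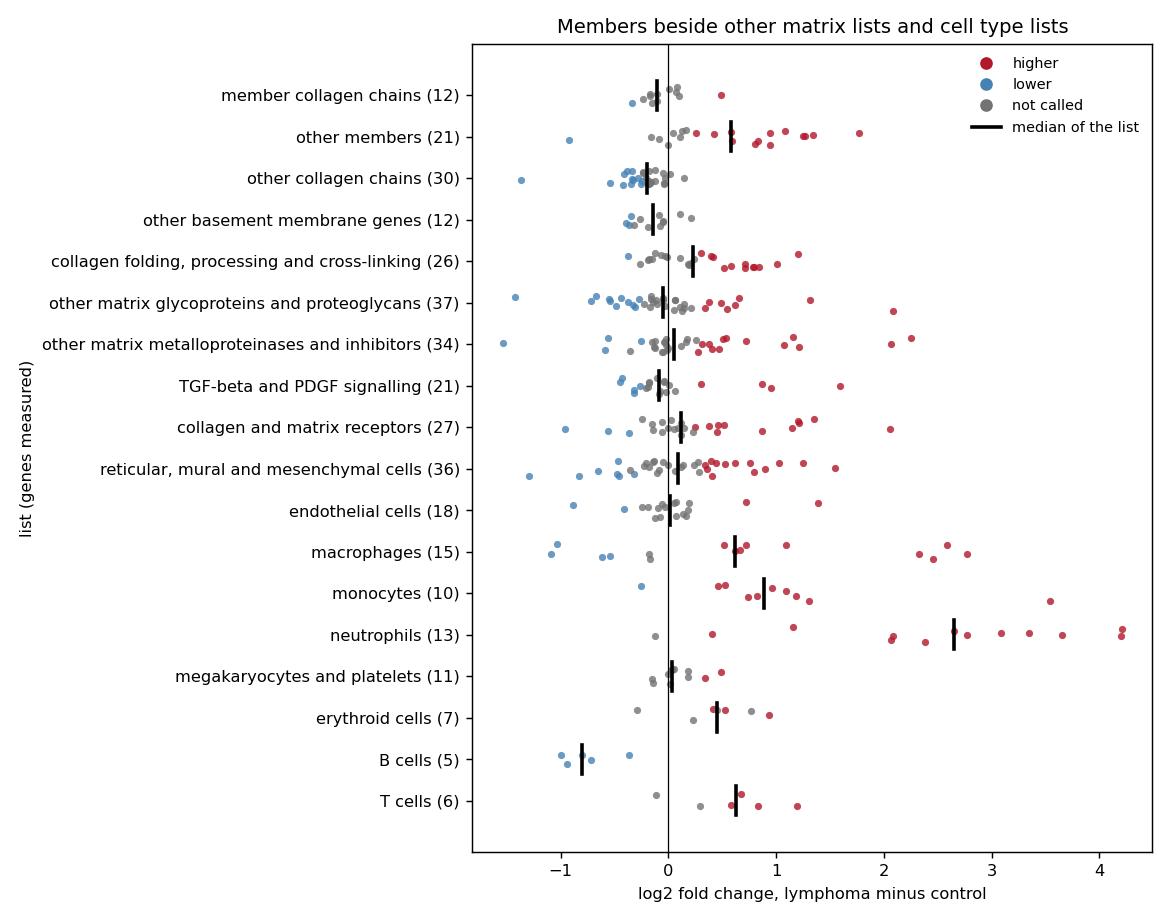
Log2 fold change of lymphoma over control spleens (horizontal axis) for each gene (point, coloured by its call) of the 33 genes, of the other matrix lists and of the cell type lists, with the number measured beside each list and a bar at its median. Neutrophil genes have the highest median, 2.65, and B cell genes the lowest, -0.80.

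Markers of other cells that can make these transcripts moved between the same groups, and their part in the changes above was not tested. Of the genes of reticular, mural and mesenchymal cells, 13 of 36 were higher and 7 lower, and their mean level lay between 7.81 and 7.91 on the lymphoma arrays and between 7.69 and 7.75 on the control arrays. *Vim*, an intermediate filament also of leukocytes, *Madcam1*, an adhesion molecule of the marginal sinus, and *Ccl19*, a chemokine of T zone reticular cells, had log2 fold changes of 1.55, 1.25 and 1.03, whereas *Ccl21a*, *Cxcl13* and *Il7*, other products of lymphoid stroma, had -1.29, -0.83 and -0.65. The smooth muscle genes *Acta2*, *Tagln* and *Myh11* did not pass, with log2 fold changes of -0.05, -0.22 and -0.15. *Cnn1*, another smooth muscle gene, was lower (-0.48), and *Des* and *Rgs5*, of mural cells, were higher (0.80 and 0.34). After scaling by the control probe sets, 23 or 24 of the 36 were higher and 2 lower. *Acta2* was then at 0.34 or 0.35 and *Cnn1* at -0.09. Of the endothelial genes, 2 of 18 were higher and 2 lower, against 18.2% and 17.2% of all clusters. Their mean level was 7.30 to 7.41 on the lymphoma arrays and 7.28 to 7.36 on the control arrays. On the scale of the control probe sets 13 or 14 were higher and 1 lower.

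Genes of neutrophils were higher in 12 of 13 cases (mean level 9.13 to 9.31 in lymphoma spleens and 6.74 to 6.93 in control spleens), of monocytes in 9 of 10 with 1 lower (9.93 to 9.99 in lymphoma spleens and 8.85 to 8.97 in control spleens) and of macrophages in 9 of 15 with 4 lower (9.41 to 9.52 in lymphoma spleens and 8.71 to 8.87 in control spleens). Of the macrophage genes, *C1qc*, *C1qa* and *C1qb*, complement components, had log2 fold changes of 2.77, 2.59 and 2.45, and *Cd163*, *Marco* and *Siglec1*, of resident splenic macrophages, had -1.09, -1.04 and -0.62. With the control probe sets as scale, *Cd163* was at -0.71 or -0.70, *Marco* at -0.65 or -0.64 and *Siglec1* at -0.23, smaller falls than on the deposited scale. Resident macrophage genes did not all fall. *Vcam1*, *Spic* and *Hmox1*, of red pulp macrophages, were higher, with log2 fold changes of 1.09, 0.61 and 0.52. Genes of megakaryocytes and platelets, which store SPARC and thrombospondin 1, were higher in 2 of 11 cases, *Selp* and *Pf4*, with a median of 0.04 (mean level 7.96 to 8.25 in lymphoma spleens and 7.87 to 8.10 in control spleens). On the scale of the control probe sets 10 were higher. T cell genes were higher in 4 of 6 cases (9.60 to 9.82 in lymphoma spleens and 9.07 to 9.21 in control spleens), erythroid genes in 3 of 7 (8.96 to 9.10 in lymphoma spleens and 8.10 to 8.96 in control spleens), and B cell genes were lower in 5 of 5 (10.80 to 10.99 in lymphoma spleens and 11.62 to 11.68 in control spleens). Of these B cell genes, *Cd22* was at -0.36, and at 0.02 or 0.03 with the control probe sets as scale. *Plac8*, the monocyte gene that was lower, was at -0.25, and at 0.13 or 0.14 with the control probe sets as scale. The falls of *Cd22* and *Plac8* thus rest on the deposited scale. The B and T cell lists, which mark lymphoid tissue, lay far above the median of the antigenomic sets in both groups.

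The arrays themselves bear on these values. Correlations across clusters were 0.992 to 0.995 within a group and 0.967 to 0.979 between groups. The 5222 probe sets marked neg had medians of 5.96 to 6.16 on the lymphoma arrays and 6.43 to 6.52 on the control arrays, a difference of -0.38, and the 18 hybridisation control sets differed by -0.39, whereas the antigenomic background median differed by -0.04. With equal levels of these control sets, the median log2 fold change of all clusters was 0.33 or 0.34 in place of -0.06, and that of the 33 genes 0.49 or 0.50 in place of 0.11. This scale gave 60.7% of clusters higher and 2.88% lower (neg sets) or 61.7% higher and 2.43% lower (hybridisation sets); then 25 of the 33 genes were higher and 1, *Postn*, was lower. All changes given above are relative to the deposited scale, except where the control probe sets are named as the scale. On the deposited scale the 14 rises and the fall of *Postn* had the same direction as with the control sets, and the small falls of collagen chains did not. The Y-linked gene *Kdm5d* read 7.17 to 8.01 on the lymphoma arrays and 8.91 to 9.15 on the control arrays. *Uty*, also Y-linked, read 7.37 to 8.52 on the lymphoma arrays and 9.26 to 9.41 on the control arrays. *Eif2s3y*, another such gene, read 8.91 to 9.84 and 10.64 to 10.85 in the same order. All of these values lay above the antigenomic median of their array, in both groups. The sources used here do not give the sex of each animal, and the part of these differences in the results was not tested. *Vav1* read 10.39 to 10.58 on the lymphoma arrays and 10.01 to 10.32 on the control arrays; the edit adds stop codons and leaves the transcript, so this does not check the genotype.

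**Figure D5:**
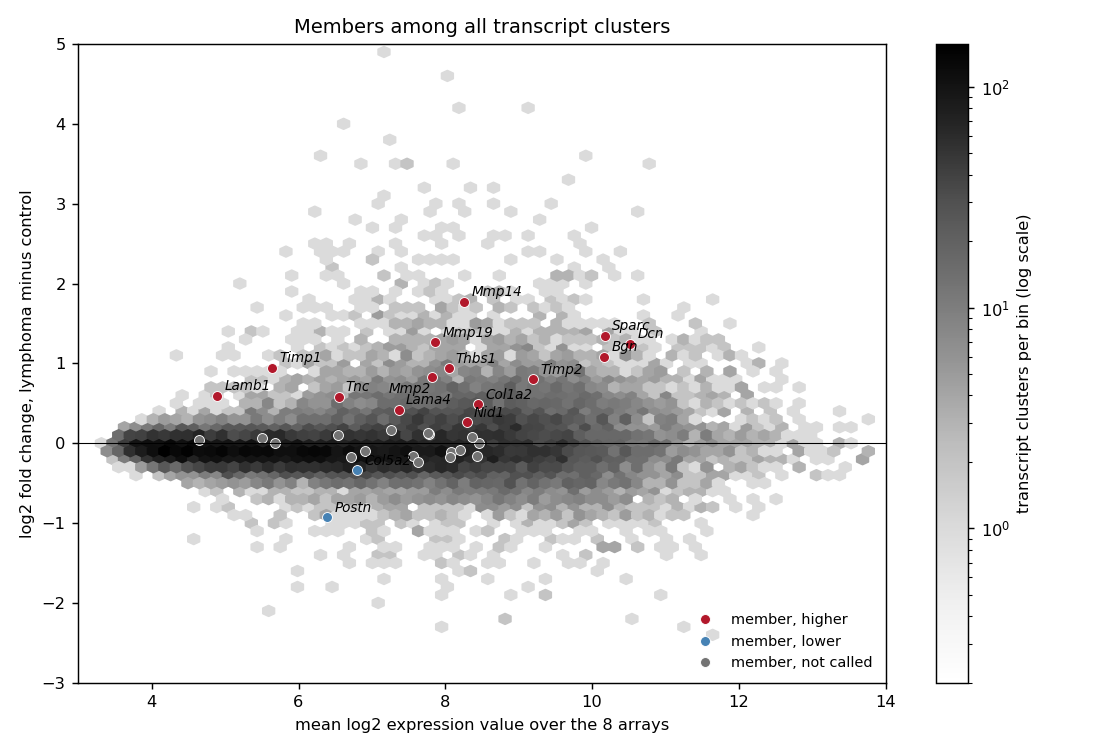
Log2 fold change of lymphoma over control spleens (vertical axis) against the mean log2 value over the 8 arrays (horizontal axis) for all 22206 clusters (grey bins, darker for more clusters on a log scale) and the 33 genes (points coloured by their call). *Mmp14* stands above the bulk of clusters of its brightness, and the genes that were not called lie among them.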

How the data were processed

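Spleen RNA of 4 lymphoma-bearing and 4 control samples, grouped by the sample labels, was read on Clariom S HT arrays of Affymetrix. The deposited values are log2 values, computed by the authors from their scanner data by robust multichip average (RMA), a method that corrects the background, gives all arrays the same distribution and combines the probes of a cluster; the submitters' processing notes name R 3.6.3. The table held 29129 probe sets, of which 6923 were control sets and 22206 were transcript clusters; 19572 clusters had 1 gene symbol in the platform annotation and 2634 had none, and a check by gene number in RefSeq changed 0 symbols. No read depth applies; the number of arrays limits the precision, and RMA values understate the folds of dim genes. Levels of different genes were not compared, since probes differ in brightness.

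The groups were compared with limma 3.58.1 in R 4.3.3 (lmFit and eBayes, two-sided, Benjamini-Hochberg over 22206 clusters, called at an adjusted p of at most 0.05), as the study's methods name limma, without covariates. Pairs of genes were compared with an exact permutation test in scipy 1.17.1. The scripts were tested on simulated arrays. The member genes, the gene lists and the pairs were chosen with earlier results of these data known. The text names all 35 members, the pairs and the 3 called genes with the largest change in each direction of each list (of some cell types given by counts alone). Defining markers of cell types are named too. These are *Acta2*, *Tagln*, *Myh11*, *Cnn1*, *Des* and *Rgs5*, and *Vcam1*, *Spic* and *Hmox1*. *Cd22* and *Plac8* are named for their change on the scale of the control probe sets. The alternatives were a block for the replicate number, cyclic loess, equal medians, other moderation, array weights, filters and floors on dim clusters, a stricter threshold, the mean of clusters and each array left out. Scaling by control probe sets and a background covariate were added after the data were seen. No hybridisation batch or date is given in the sources used here, so none was tested. Same-numbered arrays deviated together with correlations of 0.12, 0.04, 0.04 and 0.17 across clusters, against -0.14 to 0.06 for arrays of different numbers. The same-numbered values were low but all positive, and a shared replicate effect was not settled. The numbers were not taken to pair the samples in the main fit, and the block for the replicate number was run as an alternative.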

Additional observations from a re-analysis of the deposited data

Results flagged for a closer look

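In 66 groups of 4 arrays, 1 per gene and group, 5 held an array whose gap to its nearest neighbour made up most of the range of the group, and chance gives about 1 in 20 such groups. *Col1a1* was at 8.80 on lymphoma replicate 4, and without that array its log2 fold change was -0.10 in place of 0.01 and did not pass. *Col4a1* was at 8.70 on lymphoma replicate 4, and without it the log2 fold change was -0.02 in place of 0.08 and did not pass. The same array had the highest mean of the GC-rich antigenomic sets, 8.44, against 8.08 to 8.09 on the other lymphoma arrays and 8.19 to 8.31 on the control arrays, and was the highest lymphoma array for 7 of the 12 collagen chains and for 14 of the 33 genes. With that mean as a covariate, the log2 fold changes were 0.08 for *Col1a1* and 0.14 for *Col4a1* and did not pass.

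*Lama4* was at 7.27 on control replicate 4, above the other control arrays, and without it the log2 fold change was 0.46 (limma adjusted p = 0.0253). *Nid1* was at 8.36 on control replicate 2, close to the lymphoma arrays, and without it the log2 fold change was 0.33 (limma adjusted p = 0.00751). *Mmp19* was at 6.78 on control replicate 2, below the other control arrays, and without it the log2 fold change was 1.12 (limma adjusted p = 1.29e-05).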

How the results depend on the processing

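Under the alternatives other than scaling by control probe sets, 0 of the called values turned round. With equal medians of the neg control sets, 25 of the 33 genes were higher, 1 was lower and 9 were higher by at least 2-fold, and 13487 clusters were higher and 639 lower; with equal means of the hybridisation control sets the counts were 25, 1, 9, 13704 and 539. Among genes called on either scale, the direction turned round with the neg sets for *Col5a2* (0.046), *Lox* (0.38), *Fn1* (0.22) and *Pdgfrb* (0.30), and with the hybridisation sets for *Col5a2* (0.055), *Col6a1* (0.29), *Lox* (0.39) and *Pdgfrb* (0.31); *Col3a1*, *Col4a2*, *Col6a2*, *Col6a3* and *Col14a1*, called on no scale, also turned positive with both sets, *Col6a1* with the neg sets and *Fn1* with the hybridisation sets. Without the dimmest 50% of clusters 1 of the 33 genes was lower, *Col4a2*, since *Postn* and *Col5a2* were then not tested, and at an adjusted p of at most 0.01 there were 2166 clusters lower. With each array left out in turn, 13 to 14 genes were higher, 2 to 3 lower and 5 to 6 higher by at least 2-fold, and 3565 to 3910 clusters were higher and 3062 to 3670 lower. With the replicate block, 14 genes were higher, 3 lower (*Col4a2* added) and 5 higher by at least 2-fold, and 4039 clusters were higher and 3983 lower. *Lama4* lost its call without moderation of the variances (limma adjusted p = 0.0940) and at 0.01, and *Timp3* gained one with cyclic loess (limma adjusted p = 0.0470). The causes were not tested. For the pairs, 0 of 15 passed under the alternatives run, and leaving out an array was not run because no p could then pass.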
